A study of Dunaliella salina with 6 samples.

Results

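Pentatricopeptide repeat (PPR) and octotricopeptide repeat (OPR) proteins are built from short helical repeats that are stacked in tandem, and each protein binds a particular RNA sequence. In green algae they are encoded in the nucleus and imported into the chloroplast or the mitochondrion, where single factors stabilise, process, splice or allow the translation of single organelle transcripts. Tetratricopeptide repeats (TPR) have a related fold but mostly bind other proteins, and the RAP domain is a short domain found at the end of many organelle RNA-binding proteins, OPR proteins among them.

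The genes described here are the 49 of 25081 genes in the expression table of *Dunaliella salina* whose transcript carries a PPR or RAP domain in the deposited annotation, or whose symbol is OPR, PPR or TPR followed by a number. MCA1, a PPR gene that would also match, was left out of them. By symbol 26 were OPR genes and 10 were TPR genes. A further 11 were PPR genes, among them MRL1, TCB1 and DsB_g02162 with a PPR domain but no PPR symbol, and 2 (DsB_g10956 and DsB_g25308) had a RAP domain and no symbol. A PPR domain was annotated in 9 genes and a RAP domain in 5, so 35 entered by symbol alone, and 31 had no Pfam domain (an entry of a protein-domain database) of any kind.

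The "RNA-binding" part of the name "organelle RNA-binding" was backed by an annotated PPR or RAP domain for 14 of the genes and rested on the symbol for the others. Location of the proteins in an organelle was not examined for any of them. The name fitted the TPR genes least. TPR2 and TPR10 carried a DnaJ domain, the mark of co-chaperones, and TPR7 carried the domain of the nuclear-pore protein Tpr. Of the 10 TPR genes only TPR2 and TPR4 had an annotated tetratricopeptide repeat. The TPR genes are therefore given apart from the others below.

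*Dunaliella salina* is a halotolerant unicellular green alga without a rigid cell wall. All cultures were wild-type vegetative cells of the strain UTEX LB 2538 (variety Bardawil), grown for 3 days at 24 °C in medium with 1 M NaCl, lit continuously at 50 µE per square metre and second and shaken at 140 rpm. Of the 6 cultures, 3 were without added iron (0 µM) and 3 had 1.5 µM added iron, and from each 1 poly(A) RNA library was sequenced. Values are FPKM, a level scaled by transcript length and by the mapped reads of the library. The comparison asks which transcripts change when no iron is added. In RNA from whole cultures, fewer cells with a transcript and less of it per cell cannot be told apart.

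Read totals are not stated in the labels or files. Steps between the lowest FPKM values implied 18438445 to 24939126 reads per library, on the authors' scale. FOX1, a multicopper ferroxidase of iron uptake, had 1034, 1038 and 679 FPKM in replicates 1, 2 and 3 without added iron, against 3.20, 3.67 and 4.56 FPKM with added iron, which checks the labels. On the first principal component, replicate 3 without added iron scored 18.3 and replicates 1 and 2 scored 30 and 32.4, against -25.2 to -28.4 with added iron, so it lay nearest to the other group. Of the gamete genes searched for, 2 of 9 were found by symbol. HAP2 was listed at 0 in every library and GEX1 stayed under 1 FPKM.

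Without added iron 1 of the 49 genes rose, 4 fell and 44 did not pass the test. Of all tested genes 4.19% rose and 5.20% fell. OPR27 rose to 1.72 times its level with added iron, and OPR16, OPR49, OPR19 and OPR9 fell to between 0.597 and 0.762 times theirs. At the deposited scaling all 5 were OPR genes. With every library rescaled to the same summed FPKM, 10 of the 49 genes passed, of which 5 were OPR, 2 PPR and 3 TPR genes, beside 26.9% of all tested genes. No difference between OPR, PPR and TPR genes was tested. These 5 were 10.2% of the 49 genes, beside 9.39% of all 13909 tested genes (limma with Benjamini-Hochberg adjustment over all tested genes, adjusted p under 0.05). The share of the 49 genes that passed was thus near the background. None of the 49 reached a 2-fold difference in FPKM + 1, which 2.56% of all tested genes did. MCA1, left out of the 49 with earlier results known, exceeded it, at 6.76 on the log2 scale.

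All 49 genes averaged 1 FPKM or more and were tested. Their median log2 fold change of no added iron over added iron was -0.02, with quartiles of -0.18 and 0.10. For all tested genes the median was 0.00 and the quartiles were -0.15 and 0.15. The groups did not overlap for 14 of the 49 genes (28.6%), 5 higher and 9 lower, beside 30.2% of all tested genes. An unadjusted p under 0.05 was found for 10 of them, beside 25.0% of all tested genes having one.

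**Figure D1:**
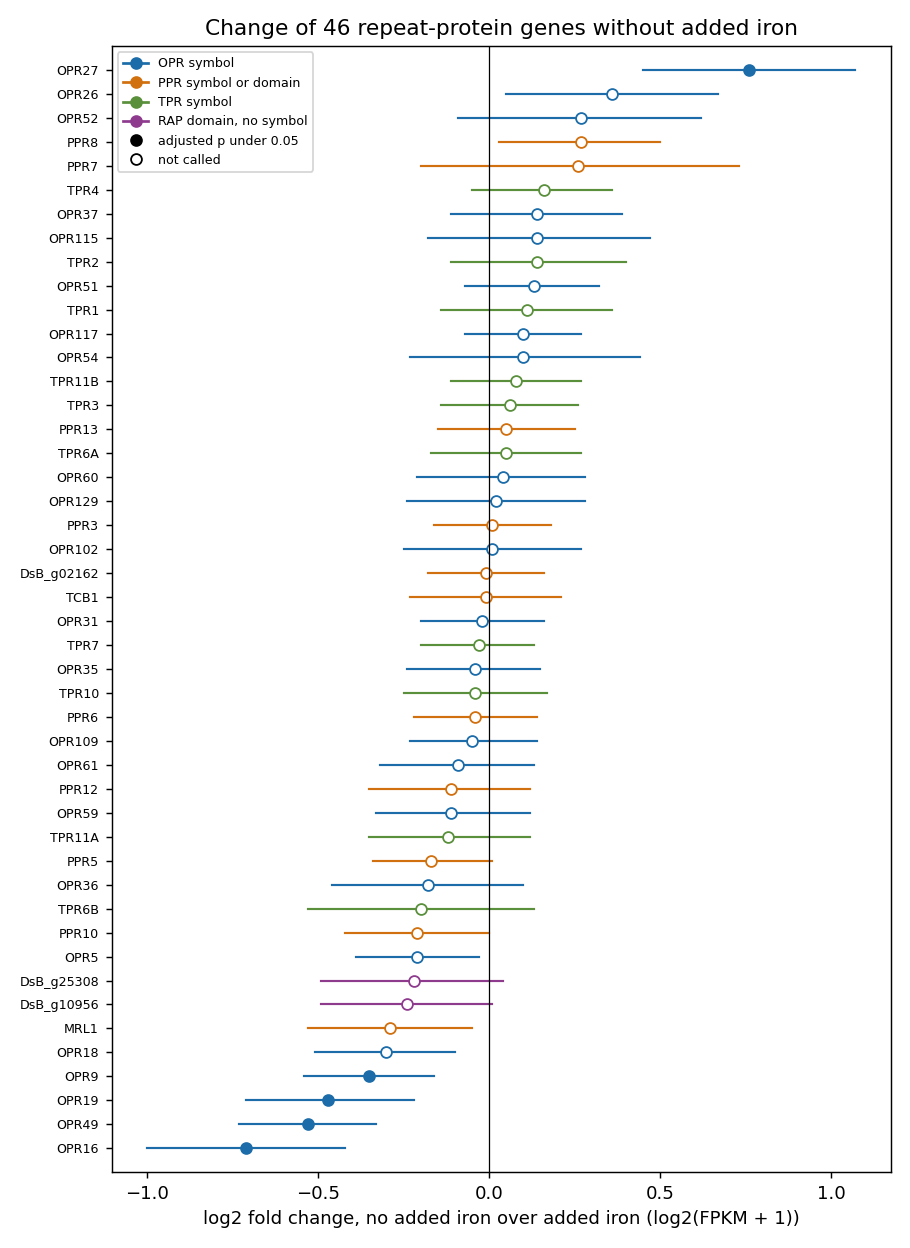
Log2(FPKM + 1) difference, no added iron minus 1.5 µM added iron, of each of 46 genes with its 95% interval from limma, coloured by kind of gene. Filled points are the 5 genes with an adjusted p under 0.05, from OPR27 at 0.76 to OPR16 at -0.71, and the other 41 estimates lie between -0.30 and 0.36.

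OPR27 (DsB_g14919) lies on chromosome 8, plus strand, from 11992856 to 12009257 on the authors' assembly (annotation version 1.1), with 12 exons and no annotated Pfam domain. Its level was 79.0, 73.4 and 57.4 FPKM in replicates 1, 2 and 3 without added iron, against 40.2, 37.7 and 44.2 FPKM with added iron. Every library without added iron was above every library with it, and replicate 3 was the lowest of the first and the highest of the second. The means were 69.9 ± 11.2 and 40.7 ± 3.25 FPKM (SD, n = 3 each), 0.76 on the log2 scale with SE 0.134 (limma adjusted p = 0.0125). OPR27 lost the threshold without replicate 2 of either group, at 0.72 (adjusted p = 0.0558) without that of no added iron and 0.70 (adjusted p = 0.0539) without that of added iron. Without replicate 3 of no added iron the difference was 0.89 (limma adjusted p = 0.00267).

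Of the 4 genes that fell, OPR16 (DsB_g17527) had the largest difference. It lies on chromosome 10, plus strand, from 6671739 to 6694811, with 16 exons. Its level was 9.73, 8.76 and 12.6 FPKM in replicates 1, 2 and 3 without added iron, against 17.5, 16.6 and 18 FPKM with added iron. The groups were well apart, with the nearest library without added iron again replicate 3. Its log2 fold change was -0.71 (SE 0.125, limma adjusted p = 0.0125), and -0.84 without that replicate (adjusted p = 0.00152). It lost the threshold without replicate 3 of added iron, at -0.68 (limma adjusted p = 0.0538), and with no filter on low values (limma adjusted p = 0.0524).

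OPR49 (DsB_g22777, chromosome 14, 8877884 to 8920779, minus strand, 17 exons) carries a RAP domain. It had 14.1, 12.9 and 14.7 FPKM without added iron, against 21.0, 19.3 and 21.1 FPKM with added iron. The spread within each group was small beside the distance between them. Its log2 fold change was -0.53 (SE 0.0862, limma adjusted p = 0.00899), and it passed the threshold in each of the 16 alternatives run.

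OPR19 (DsB_g09649) lies on chromosome 5, minus strand, from 7922351 to 7944188, with 10 exons. Its level was 8.95, 8.34 and 10.7 FPKM without added iron, against 13.7, 12.1 and 14.0 FPKM with added iron. Again the groups did not overlap and replicate 3 without added iron was nearest to the other group. The log2 fold change was -0.47 (SE 0.106, limma adjusted p = 0.0325). OPR9 (DsB_g21224), also with a RAP domain, lies on chromosome 13, minus strand, from 411505 to 428688, with 14 exons. It had 6.11, 6.05 and 7.10 FPKM without added iron, against 8.63, 8.20 and 8.46 FPKM with added iron, -0.35 on the log2 scale with SE 0.0834 (limma adjusted p = 0.0387). OPR19 lost the threshold in 7 of the 16 alternatives and OPR9 in 9. Among these were the fits without replicate 1 or 2 of no added iron, where adjusted p reached 0.0952 and 0.121 for OPR19 and 0.112 and 0.148 for OPR9. Without replicate 1, 2 or 3 of added iron the adjusted p was 0.0941, 0.0557 and 0.106 for OPR19 and 0.117, 0.0985 and 0.107 for OPR9.

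Replicate 3 was the library without added iron closest to the added-iron mean in all 5 genes that passed, and in 23 of the 49. How often this held over all tested genes was not counted. When that library was left out, 2 of the 49 genes were higher and 6 lower, OPR18, MRL1 and PPR7 being the additions. Over all tested genes 931 were then higher and 853 lower, against 583 and 723 with all libraries. The part of this library in the smaller differences was not tested. No other gene model overlapped any of the 49 genes. Of the 5 that passed, OPR9 and OPR19 had close neighbours: the nearest model lay 135 nt from OPR9 and 207 nt from OPR19, in both cases on the opposite strand, and it is not stated whether reads were counted by strand. These neighbours, GSH2 and DsB_g09650, did not pass the test, at 0.01 (limma adjusted p = 0.953) and -0.26 (limma adjusted p = 0.103).

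**Figure D2:**
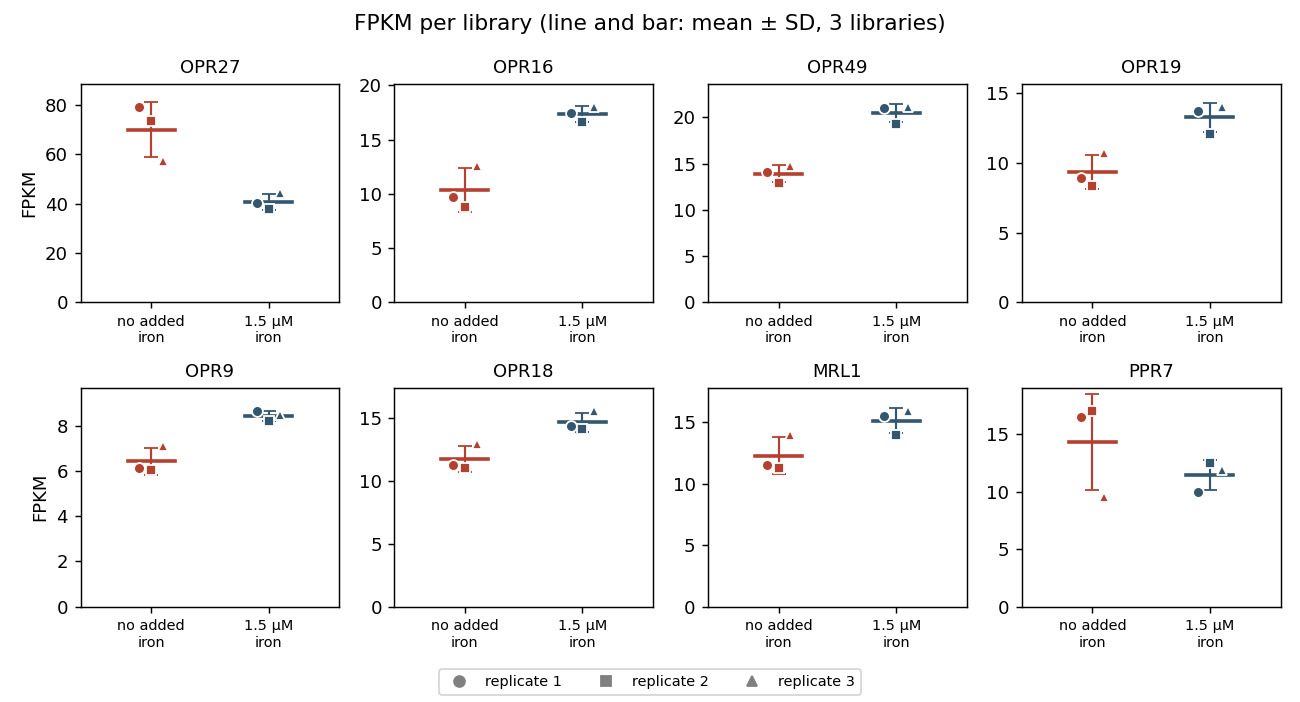
FPKM in each library of the 5 genes that passed the test and of OPR18, MRL1 and PPR7, without added iron and with 1.5 µM added iron, where lines and bars are the mean ± SD of 3 libraries. In OPR27, OPR16, OPR49, OPR19 and OPR9 the groups do not overlap, while replicate 3 of PPR7 without added iron, at 9.50 FPKM, lies below all libraries with added iron.

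Of the 26 OPR genes 5 passed, beside 9.39% of all tested genes, and 21 did not. OPR18 (DsB_g14068, chromosome 7, 23098570 to 23114696, minus strand) came nearest. It had 11.2, 11 and 12.9 FPKM without added iron, against 14.3, 14.1 and 15.5 FPKM with added iron, with no overlap and a log2 difference of -0.30 (limma adjusted p = 0.0724). OPR5 was at 11.5 ± 0.348 FPKM without added iron and 13.5 ± 0.729 FPKM with it (SD, n = 3 each; limma adjusted p = 0.132), also with no overlap. With quantile normalization OPR5 passed, at -0.23 (limma adjusted p = 0.0287). Of all tested genes 1050 were higher and 1095 lower in that setting. On the other side, OPR26 had 4.60 ± 0.690 FPKM without added iron and 3.36 ± 0.584 FPKM with it (SD, n = 3 each), 0.36 on the log2 scale (limma adjusted p = 0.139), and its groups overlapped.

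The 5 genes with a RAP domain all had negative estimates, from -0.53 to -0.11, beside 6950 negative ones among all 13909 tested genes. Those of OPR49 and OPR9 passed, beside 9.39% of all tested genes. With rescaled libraries 4 of the 5 were negative, OPR59 being at 0.04, and only OPR49 passed, since OPR9 was at -0.20 (limma adjusted p = 0.223). The other 3 were OPR59 at -0.11 (limma adjusted p = 0.546), DsB_g10956 at -0.24 (0.224) and DsB_g25308 at -0.22 (0.276). DsB_g25308, on the plus strand of the unplaced scaffold_174 from 235 to 3788, had 3.37, 3.96 and 3.90 FPKM without added iron, against 4.12, 4.18 and 5.37 FPKM with added iron, so its groups did not overlap either. Groups without overlap were found for 3 of the 5 genes, beside 30.2% of all tested genes. Over the 23 OPR genes without a RAP domain the median log2 fold change was 0.01, and 12 estimates were positive and 11 negative. The difference between these sets was not tested.

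Of the 11 PPR genes 0 passed the limma test at an adjusted p under 0.05, beside 9.39% of all tested genes. An unadjusted p under 0.05 was found for 2 (MRL1 and PPR8), beside 25.0% of all tested genes. MCA1, a PPR gene that passed, was left out of these 11. The estimates of the 11 ran from -0.29 to 0.27 with a median of -0.01. MRL1 (DsB_g22721, chromosome 14, 7713822 to 7748097, plus strand, 24 exons) carries a PPR domain, and the *Chlamydomonas* gene of that name is needed for the messenger RNA of the large Rubisco subunit. It had 11.5, 11.3 and 14.0 FPKM without added iron, against 15.5, 14.0 and 15.9 FPKM with added iron. The groups met at 14.0 FPKM without crossing, and the log2 fold change was -0.29 (SE 0.103, limma adjusted p = 0.125). Without replicate 3 of no added iron it was -0.38 (limma adjusted p = 0.0348).

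PPR7 (DsB_g00384, chromosome 1, 6044201 to 6047751, plus strand), the namesake of a *Chlamydomonas* chloroplast protein that associates with several plastid RNAs, was the PPR gene in which the libraries without added iron differed most. It had 16.5, 17.0 and 9.50 FPKM in replicates 1, 2 and 3 without added iron, against 10, 12.5 and 11.9 FPKM with added iron. Replicates 1 and 2 without added iron thus lay above every library with it, and replicate 3 below every one. With all libraries the log2 fold change was 0.26 (limma adjusted p = 0.471), and without replicate 3 of no added iron it was 0.52 (limma adjusted p = 0.0234).

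PPR8 had 3.06 ± 0.112 FPKM without added iron and 2.38 ± 0.195 FPKM with it (SD, n = 3 each), 0.27 on the log2 scale (limma adjusted p = 0.149). PPR3 and PPR6, which carried 5 PPR domain entries each, had estimates of 0.01 and -0.04 with 95% intervals of -0.16 to 0.18 and -0.22 to 0.14. For TCB1 and DsB_g02162 the estimate was -0.01 each. The count of 0 depended on the scaling: with rescaled libraries PPR8, at 0.46 (limma adjusted p = 0.0286), and PPR13, at 0.23 (limma adjusted p = 0.0370), were higher. So were 3185 of all 13909 tested genes.

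None of the 10 TPR genes passed the limma test, beside 9.39% of all tested genes. An unadjusted p under 0.05 was found for 0 of the 10, beside 25.0% of all tested genes. Their groups overlapped in every case, while 30.2% of all tested genes had groups without overlap. Their estimates lay between -0.20 for TPR6B and 0.16 for TPR4. With rescaled libraries 3 of the 10 were higher, TPR4 at 0.34 (limma adjusted p = 0.0280), TPR2 at 0.32 (limma adjusted p = 0.0156) and TPR1 at 0.28 (limma adjusted p = 0.0355). Of all 13909 tested genes 3185 were higher in that setting. TPR7, with the nuclear-pore domain, was among the steadiest of the 49 genes, at 6.80 ± 0.226 FPKM without added iron and 6.97 ± 0.157 FPKM with it (SD, n = 3 each).

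A missed threshold does not show that a gene kept its level. For the 44 genes that did not pass, the 95% intervals reached up to 0.73 (PPR7), and 36 of these intervals lay within 0.5 of 0 on the log2 scale. All 44 lay within 1, which is a 2-fold difference in FPKM + 1. For genes of low level that is more than 2-fold in FPKM, so such a change is not excluded for them. By the steps in the low values OPR115, with 2.39 FPKM on average, had about 50 to 77 reads per library, whereas OPR27 had about 1965 to 3678.

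**Figure D3:**
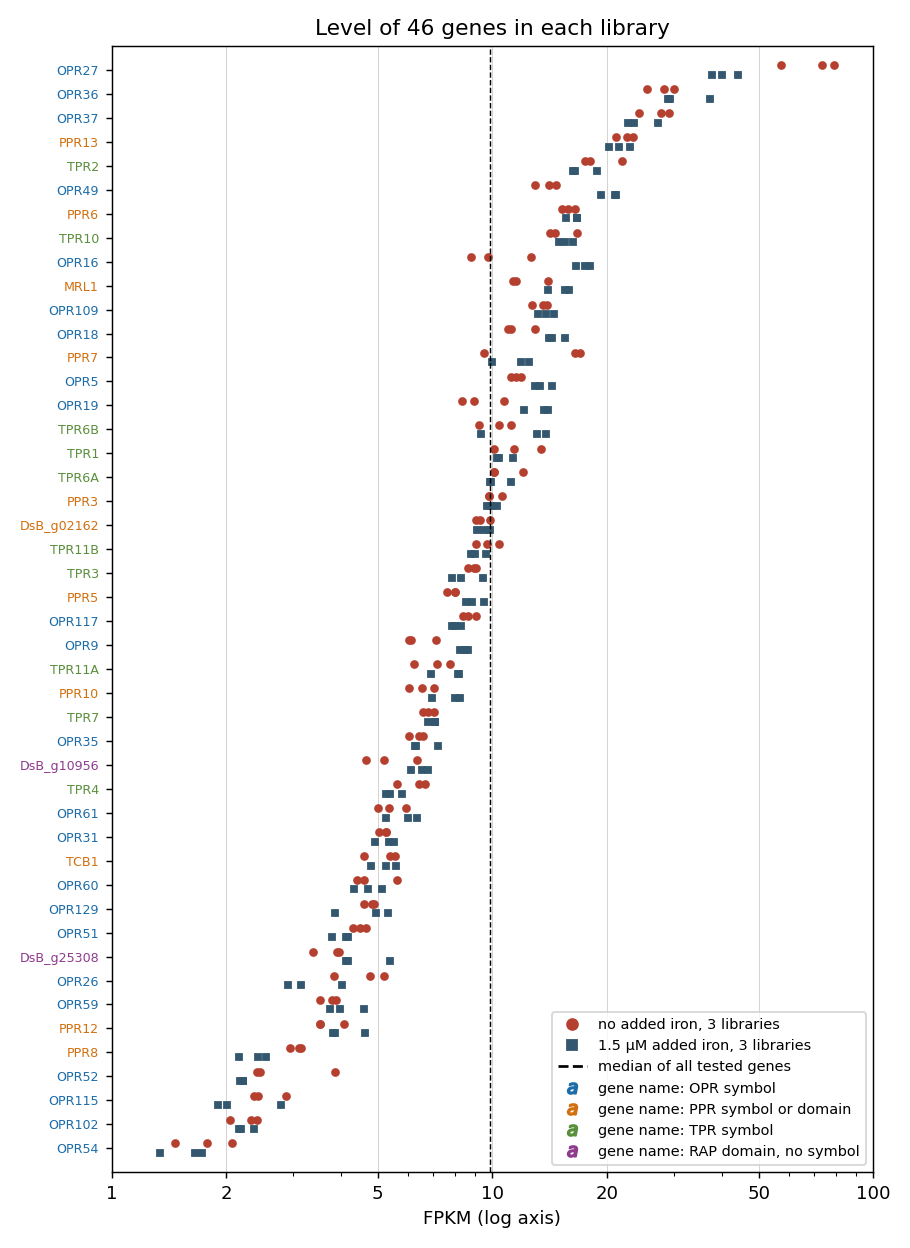
FPKM of 46 genes in each of the 6 libraries on a log axis, ordered by mean level, with circles for no added iron and squares for 1.5 µM added iron, and gene names coloured by kind. OPR27 stands above all others in every library, and the dashed line marks the median of all tested genes at 9.87 FPKM.

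As a family these transcripts were of moderate to low abundance among the tested genes. Their median level was 7.43 FPKM over the 6 libraries, beside 9.87 FPKM for all tested genes, and 19 of the 49 lay above that value. Over all 24990 gene models with annotated exons, tested or not, the median was lower, at 2.48 FPKM. By kind the median level was 5.44 FPKM for OPR genes, 9.44 for PPR genes and 9.97 for TPR genes. OPR27 had the highest level in each library, and its lowest value of 37.7 FPKM lay just above the highest of OPR36, 37.3. Next came OPR36 with 29.9 FPKM, OPR37 with 25.8, PPR13 with 22.0 and TPR2 with 18.2 on average over the 6 libraries. The ranges of OPR36 and OPR37 overlapped, as did those of OPR37 and PPR13 and of PPR13 and TPR2. Compared library by library, OPR37 always lay above PPR13, and PPR13 always above TPR2. The order of OPR36 and OPR37 was not settled, since OPR37 led in replicate 2 without added iron, with 29.1 against 28.3 FPKM, and OPR36 led elsewhere. At the low end, OPR54 averaged 1.68 FPKM.

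Summed over the 49 genes, FPKM was 508, 493 and 469.8 in replicates 1, 2 and 3 without added iron, against 483, 469.9 and 508 with added iron, so the groups overlapped. This overlap depended on OPR27. Without that gene the sums were 429, 419.9 and 412 without added iron, against 443, 432 and 464 with it, and did not overlap. The sum of all 49 was 0.0946% to 0.0997% of all FPKM in a library without added iron and 0.0833% to 0.0873% with it. All FPKM of a library summed to between 472982 and 537245 without added iron and between 538457 and 610113 with added iron. The higher share therefore went with a lower total of all genes. When every library was rescaled to the same total, the median difference moved to 0.17 (log2) over all tested genes and to 0.15 over the 49 genes. Of the 49 genes 8 were then higher (OPR27, OPR26, OPR37, PPR8, PPR13, TPR1, TPR2 and TPR4) and 2 lower, against 1 and 4 with deposited values, and of all tested genes 3185 were higher and 551 lower, against 583 and 723. OPR16 and OPR49 were lower and OPR27 was higher under both.

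**Figure D4:**
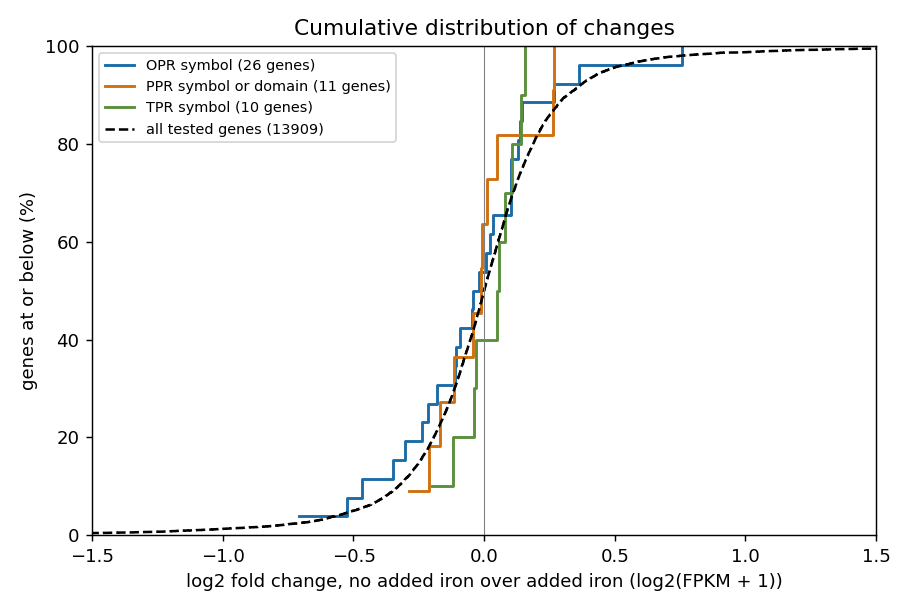
Cumulative share of genes at or below each log2(FPKM + 1) difference, no added iron minus 1.5 µM added iron, for OPR, PPR and TPR genes and for all 13909 tested genes (dashed, with genes beyond 1.5 in either direction not shown). The PPR genes span -0.29 to 0.27 and the TPR genes -0.20 to 0.16, while the OPR genes span -0.71 to 0.76.

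The 49 genes shared features that the rule did not use. They were long: the summed exon length had a median of 3012 nt, beside 1554 nt for tested genes with annotated exons, and 41 of the 49 were above the latter. The median number of exons was 13.0, beside 8, and the median span on the chromosome was 18 kb, beside 9.76 kb. PPR genes were the longest kind, with a median of 3663 nt of exon, then OPR genes with 3185 nt and TPR genes with 1771 nt. OPR117 had the most exon sequence, 8235 nt in 28 exons, and OPR115 was a single exon of 1296 nt.

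Chromosome 1 held 9 of the genes, chromosomes 2, 5 and 7 held 6 each, and chromosomes 3, 12 and 15 held 0. Some lay side by side on the same strand. OPR52 and OPR115 on chromosome 1 were 1955 nt apart, and TPR6A and TPR6B on chromosome 9 were 967 nt apart. None of these neighbours passed the test. How reads common to genes of 1 lettered symbol were shared out is not stated, so the values of TPR6A and TPR6B are uncertain.

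MCA1 (DsB_g11707, chromosome 6, 12820264 to 12828498, minus strand), the PPR gene set aside here, is known in *Chlamydomonas* as the factor that stabilises the messenger RNA of cytochrome f. It had 369, 362 and 238 FPKM in replicates 1, 2 and 3 without added iron, against 2.01, 1.61 and 2.20 FPKM with added iron, 6.76 on the log2 scale with SE 0.176 (limma adjusted p = 3.78e-07). The largest estimate among the 49 genes was 0.76.

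Other genes of organelle RNA metabolism were read from a list of 50, made of known factors by symbol and of other RNA-handling domains. The list is not purely of organelle genes, since 1 of its domains is also that of exosome subunits and its symbols include the cytosolic factor NAB1. Of the 50, 1 rose and 2 fell, 6% beside the 9.39% of all tested genes, and the median log2 fold change was -0.03. RB60, a protein disulfide isomerase, had 148, 156 and 112 FPKM without added iron, against 50.8, 56.9 and 64.7 FPKM with added iron, 1.25 on the log2 scale (limma adjusted p = 0.00222). NAB1, known in *Chlamydomonas* as a cytosolic repressor of light-harvesting protein translation, fell to 93.3 ± 3.72 FPKM without added iron, against 163 ± 20.1 FPKM with added iron (SD, n = 3 each; limma adjusted p = 0.00483). RAA12, one of a group of RAA symbols that in *Chlamydomonas* belong to trans-splicing of the psaA transcript, fell to 8.95 ± 0.492 FPKM, against 11.7 ± 0.177 FPKM with added iron (SD, n = 3 each; limma adjusted p = 0.0250). The group as a whole did not fall: of the 6 RAA genes in the list 5 had positive estimates, none of which passed. The median of the 6 was 0.13.

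Several factors with a well-known *Chlamydomonas* namesake were among the genes of the list that did not pass. MBB1 and NAC2, which in *Chlamydomonas* stabilise psbB and psbD transcripts, had estimates of -0.15 (limma adjusted p = 0.272) and -0.01 (0.943). TAB2, which in *Chlamydomonas* acts in psaB translation, was at 35.1 ± 4.01 FPKM without added iron and 34.9 ± 3.66 FPKM with it (SD, n = 3 each). The exoribonuclease gene PNP1 and the ribonuclease J gene RNJ1 had estimates of -0.14 (0.386) and -0.31 (0.0774). RAA14A, singled out after its values were seen and outside the list, rose to 3.34 ± 0.845 FPKM, against 1.14 ± 0.259 FPKM with added iron (SD, n = 3 each; limma adjusted p = 0.0111). RAA14B, of the same lettered symbol, was at 47.8 ± 4.69 FPKM without added iron and 45.2 ± 2.94 FPKM with it (SD, n = 3 each; limma adjusted p = 0.701). How reads common to both were shared out is not stated, so the low values of RAA14A are uncertain. Of the 4 RAA genes outside the list, RAA14A alone passed.

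For 2 comparable families the shares that passed were lower than the background of 9.39%. Of the 66 tested genes with a tetratricopeptide domain outside the 49, 1 rose and 0 fell (1.52%). Of the 105 tested genes with an RNA recognition motif or KH domain, 2 rose and 1 fell (2.86%). No difference between these families and the 49 genes was tested.

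The organelle transcripts themselves are poorly captured by selection for poly(A) tails, which most of them lack. Of the 79 genes of the plastome 70 were tested, and 8 fell and 0 rose by limma, 11.4% beside the 9.39% of all tested genes (27 had an unadjusted p under 0.05). Their median log2 fold change was -0.43, with a median coefficient of variation between replicates of 29.8%, beside 9.74% for all tested genes and 8.19% for the 49 genes. Of the 7 genes of the mitogenome 6 were tested, and 0 passed limma, with 0 also at an unadjusted p under 0.05.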

How the data were processed

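Poly(A) RNA of 6 cultures was sequenced with single-end 50 nt reads, and the reads were aligned with STAR 2.4.0j, per the submitters' processing notes, to the assembly deposited with them. The deposited values are FPKM per gene and library, computed by the authors with Cuffdiff 2.0.2, per the same notes. Options and scaling steps of these tools are not stated. Coordinates count from 1 on the authors' assembly.

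The 13909 genes that averaged 1 FPKM or more were fitted as log2(FPKM + 1) by limma 3.58.1 (R 4.3.3) on group alone, with a mean-variance trend, and two-sided p-values were adjusted by Benjamini-Hochberg. The scale understates changes of low genes, and errors are standard errors of the moderated fit. FPKM values are not counts, so no count model was run. Implied reads came from the step shared by the low values of 18135 models with 1 transcript, with transcript length reduced by the offset that gave the clearest step (202 nt or 0). Of the low values 17.8% to 40.1% lay within 0.05 of a whole read, so whole reads were not recovered and read numbers are approximate. The fit was tested on simulated data. Python 3.11.15, pandas 2.3.3 and matplotlib 3.10.9 were used.

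The members and lists were chosen with earlier results of these data known. Named were members that passed, the 15 of highest level with a symbol, the 4 largest estimates in each direction and all with a RAP domain. Others were added after their values were seen. Alternatives changed the pseudocount, filter, scaling, trend, replicate block or libraries used. The cultures were separate flasks from precultures, so p-values measure the spread between flasks. In the organelle list a symbol could end in an extra letter or digit. No gene sequence was used. Of the 49 genes 3 enter the counts and medians but are not reported here by name.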

Additional observations from a re-analysis of the deposited data

How the results depend on the processing

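The counts of the 49 genes, 1 higher and 4 lower, were recomputed in 16 alternatives. Without the filter on low values 1 was lower, and of all 19137 genes then tested 416 were higher and 504 lower. With columns rescaled to 1000000 the counts of the 49 genes were 8 higher and 2 lower. With replicates 1 and 2 of both groups only, 2 were higher. Leaving out 1 library at a time gave 0 to 2 higher and 1 to 6 lower. The median log2 fold change of the 49 genes stayed between -0.05 and 0.00 when 1 library was left out and moved to 0.15 only with rescaled columns. Over all tested genes, 583 higher and 723 lower became 3185 higher with rescaled columns, 1050 and 1095 with quantile normalization and 1010 higher with replicates 1 and 2 only, and 271 to 931 higher and 315 to 853 lower without 1 library. Of the named genes, none that passed changed sign. With rescaled columns PPR6 (0.13), TPR10 (0.14), OPR109 (0.13) and OPR59 (0.04), which did not pass, changed sign, as did OPR109 (0.02) in replicates 1 and 2 only. TPR10 lay between -0.11 and 0.00 when 1 library was left out. The cause was not tested.

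With the replicate block, 365 of all tested genes were higher and 448 lower, and of the 49 genes 1 was higher and 3 lower (OPR9 did not pass). Deviations of same-numbered libraries from their group means correlated at 0.0246, 0.0776 and -0.135 for numbers 1, 2 and 3 across genes, so the numbers were not taken as pairs. About 50 to 77 reads per library limit OPR115.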
